A study of Drosophila melanogaster with 60 samples.

Results

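The odorant receptor (Or) and gustatory receptor (Gr) genes of Drosophila melanogaster were followed through the peak lists of a ChIP-seq study of the Hox factor Ultrabithorax (Ubx) in embryonic mesoderm and neurons. Members were the protein-coding genes of the dm6 Ensembl annotation named Or or Gr with a number and a letter, together with Orco. This rule took 120 of 13968 protein-coding genes, of which 60 were odorant receptors and 60 gustatory receptors. ChIP-seq lists were available for Ubx, for H3K27ac, a histone mark of active promoters and enhancers, for H3K27me3, the mark laid down by Polycomb complexes, and for Pleiohomeotic (Pho), a DNA-binding protein of the Polycomb group. Nuclei were captured by INTACT, in which a tag on the nuclei of one tissue is used to pull them out of whole embryos. Mesodermal nuclei carried twi-INTACT, a tag driven through the mesodermal gene twi, and neuronal nuclei elav>INTACT, a tag driven through the neuronal gene elav.

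For Ubx there were 3 early and 2 late lists from wild-type mesoderm and 2 early and 2 late lists from wild-type neurons. Either histone mark had 2 lists for each stage of wild-type mesoderm. Early embryos were at stages 10 to 13 and late embryos at stages 14 to 17. Ubx degradation was studied at stages 14 to 17 in mesodermal nuclei that all carried twi-INTACT and GFP-Ubx. Control embryos (twi-INTACT; UAS-Nslmb,GFP-Ubx) held the Nslmb construct with no driver named. Degradation embryos (twi-INTACT, Mef2>Nslmb,GFP-Ubx) expressed Nslmb, a degrader of GFP-tagged proteins, through the muscle driver Mef2. Each of H3K27ac, H3K27me3 and Pho had 3 lists in either genotype. No list of Ubx was used in these 2 genotypes, so the loss of Ubx itself was not measured here. Whether lists of a group came from separate embryo collections was not stated, so p-values measure the spread between these lists, which may be technical. In 2 lists the peak names carried another replicate's label: early mesoderm Ubx list R2 was named as S, and control H3K27ac list 3 as 2. They are used here as the sample labels give them, and counts with each left out are given beside the results. A covered share cannot tell fewer nuclei with a mark from a weaker mark in each nucleus.

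Insect odorant receptors are membrane proteins of olfactory neurons that form ion channels together with the coreceptor Orco. Gustatory receptors are their relatives in taste neurons and detect sugars, bitter compounds and, in a few cases, carbon dioxide or pheromones. As a rule, a single sensory neuron uses one or a few of these genes and the other tissues of the animal use none. The files held no RNA values, so silence in the embryonic mesoderm was not measured and the chromatin marks are the only readout given here.

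Peaks were counted in the TSS window, the 1 kb on each flank of the start, and in the gene region, the gene body with the 2 kb before it. Receptor genes were short, with a median length of 1445 bp against 2164.5 bp for all genes, and their gene regions ranged from 3143 to 9422 bp. They were spread over all large chromosome arms, with 27 on 2L, 28 on 2R, 22 on 3L, 29 on 3R and 14 on X. The start of another protein-coding gene that is no receptor lay within 1 kb for 12 members, and 16 other members lay wholly inside another gene, 15 of them without touching an exon of it. A further 44 had another receptor's start within 10 kb, and 48 stood alone. Gr64b and Gr64c shared a start, as did Gr10a and Or10a, which left 118 distinct starts.

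Promoters were read from the release 6 RefSeq genome, which has dm6 coordinates, as the 300 bases from 250 before to 50 after each start. They were searched on both strands for TAATTA, the core recognised by homeodomain proteins such as Ubx, for TGATTTAT, a site of Hox proteins with their partner Exd, and for GCCATNTT, the core recognised by Pho. TAATTA was present in 61 of the 120 receptor promoters (50.8%), against 20.4% of the 13968 promoters of all genes. It occurred in 26 odorant and 35 gustatory receptor promoters. TGATTTAT was present in 1 receptor promoter, that of Or65c (0.833% against 3.39% of all promoters), and GCCATNTT in 5 (4.17% against 5.93%).

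Base composition was described by GC content alone, and its part in the share with TAATTA was not tested. The median GC content was 39.7% in receptor promoters and 38.0% in all promoters. Among the 5305 promoters between the quartiles of the receptors' GC contents, 35.2% and 43.8%, TAATTA was present in 18.6%, and in 34 of the 60 receptors among them. The motif was found most often from 150 to 51 bases before the start, where it began in 38 of the 120 receptor promoters (31.7%) against 9.61% of all promoters. Receptors of one cluster can share promoter sequence through duplication and are not independent.

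**Figure D1:**
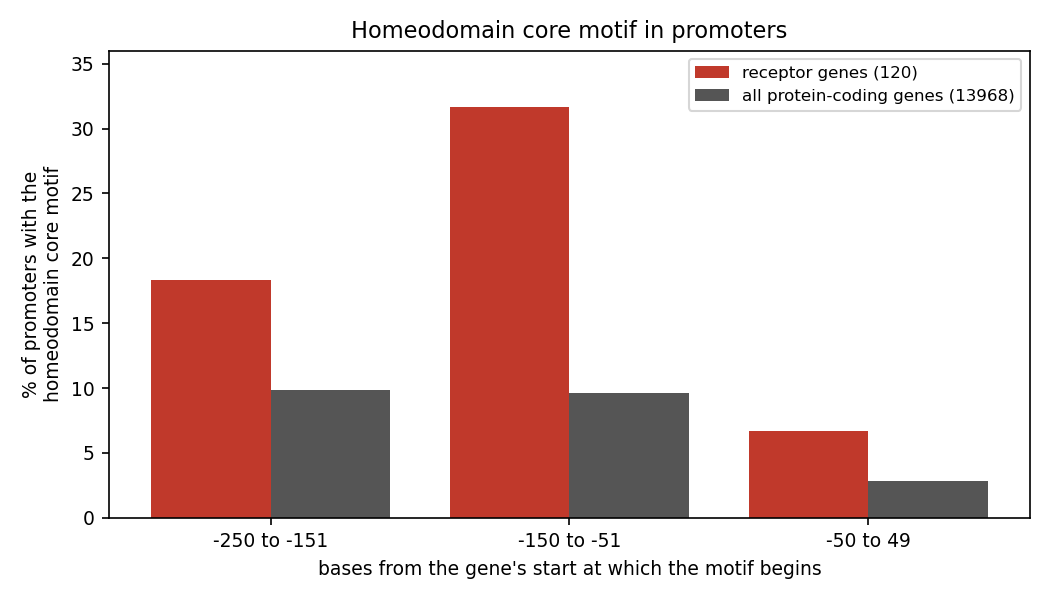
Share of promoters (y axis, percent) in which the homeodomain core motif began within each stretch of 100 bases (x axis, bases from the gene's start), for 120 receptor genes and 13968 protein-coding genes. Receptor promoters held it more often in each stretch, with 31.7% against 9.61% in the middle one.

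The promoters of 6 receptors that the results below turn on are shown 5′ to 3′ on the gene's strand, with every match to one of the motifs in capitals. Or82a, a receptor for geranyl acetate, and Or85a, an odorant receptor inside the muscle gene Poxm, held TAATTA. Or67d, the receptor for the male pheromone cVA, and Gr66a, a bitter taste receptor, held TAATTA and matches to the Pho core, 1 in Or67d and 2 in Gr66a. Neither Orco nor the sugar receptor Gr61a held a match.

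Or82a, chr3R:4256722-4257021, plus strand: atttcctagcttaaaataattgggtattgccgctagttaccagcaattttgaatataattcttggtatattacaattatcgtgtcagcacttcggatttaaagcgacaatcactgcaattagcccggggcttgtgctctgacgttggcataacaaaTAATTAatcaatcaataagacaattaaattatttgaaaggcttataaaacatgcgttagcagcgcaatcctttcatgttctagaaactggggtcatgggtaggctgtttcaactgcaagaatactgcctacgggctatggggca

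Or85a, chr3R:8321497-8321796, plus strand: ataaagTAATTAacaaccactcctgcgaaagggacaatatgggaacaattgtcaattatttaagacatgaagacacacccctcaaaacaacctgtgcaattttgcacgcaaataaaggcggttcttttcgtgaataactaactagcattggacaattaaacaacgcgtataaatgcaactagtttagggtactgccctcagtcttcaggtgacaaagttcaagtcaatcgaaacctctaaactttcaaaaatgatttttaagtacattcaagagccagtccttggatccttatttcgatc

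Or67d, chr3L:10272954-10273253, plus strand: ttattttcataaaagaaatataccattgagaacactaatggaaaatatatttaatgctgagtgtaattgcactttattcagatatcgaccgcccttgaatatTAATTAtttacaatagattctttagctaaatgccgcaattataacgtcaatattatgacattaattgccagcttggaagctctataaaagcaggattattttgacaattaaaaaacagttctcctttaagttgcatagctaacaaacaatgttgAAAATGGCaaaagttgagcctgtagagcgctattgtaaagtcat

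Gr66a, chr3L:8306931-8307230, minus strand: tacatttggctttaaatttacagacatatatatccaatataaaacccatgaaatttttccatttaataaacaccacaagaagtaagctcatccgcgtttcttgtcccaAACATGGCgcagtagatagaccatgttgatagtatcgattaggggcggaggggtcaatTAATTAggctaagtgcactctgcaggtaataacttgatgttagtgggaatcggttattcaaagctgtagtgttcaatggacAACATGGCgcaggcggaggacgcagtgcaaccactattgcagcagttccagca

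Orco, chr3R:5412357-5412656, minus strand: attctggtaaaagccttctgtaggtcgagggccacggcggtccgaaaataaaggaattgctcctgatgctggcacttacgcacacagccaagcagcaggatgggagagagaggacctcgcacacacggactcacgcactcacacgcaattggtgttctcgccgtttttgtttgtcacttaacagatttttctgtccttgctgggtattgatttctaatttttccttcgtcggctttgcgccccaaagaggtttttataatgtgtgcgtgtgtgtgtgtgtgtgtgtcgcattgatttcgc

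Gr61a, chr3L:841201-841500, plus strand: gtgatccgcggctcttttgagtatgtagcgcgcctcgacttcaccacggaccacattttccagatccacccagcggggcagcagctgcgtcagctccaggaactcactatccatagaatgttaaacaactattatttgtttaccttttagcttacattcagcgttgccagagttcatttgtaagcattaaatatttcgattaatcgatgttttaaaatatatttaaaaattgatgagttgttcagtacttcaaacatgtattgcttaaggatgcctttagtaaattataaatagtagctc

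The motif did not separate receptors with Ubx peaks from those without. Peaks of both early neuronal Ubx lists lay in the TSS window of 17 of the 61 receptors with TAATTA and 17 of the 59 without it. In late mesoderm the counts were 3 of 61 and 0 of 59.

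H3K27ac was nearly absent from receptor starts in wild-type early mesoderm. Peaks covered on average 1.84% and 0.189% of the receptors' TSS windows in the 2 early lists, against 30.2% and 10.4% for all genes. Peaks of neither early list touched 107 of the 120 windows. In the 2 late lists receptors had 10.1% and 0.210%, against 35.8% and 2.88% for all genes, so both late values followed the length of their lists, which covered 25.3 and 1.01 Mb. In the control genotype receptors had 7.59% ± 4.59 (SD, n = 3) against 22.7% ± 16.4, and under degradation 6.37% ± 2.44 (n = 3) against 22.5% ± 7.56.

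Receptors lay below all genes in each of the 10 H3K27ac lists, at 0.0181 to 0.567 of the mean over all genes. They also lay below genes with no other start within 1 kb in each of the 10 lists. The ionotropic receptors (60 genes), the other large family of chemosensory receptors, had 0.122% to 10.6% and lay on either side of the Or and Gr genes, above them in 6 lists. The genes of cytoplasmic ribosomal proteins (92 genes), which every cell uses, had 18.5% to 75.8%. Gustatory receptors lay above odorant receptors in 9 of the 10 lists, for example at 2.43% against 1.25% in early list 1.

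**Figure D2:**
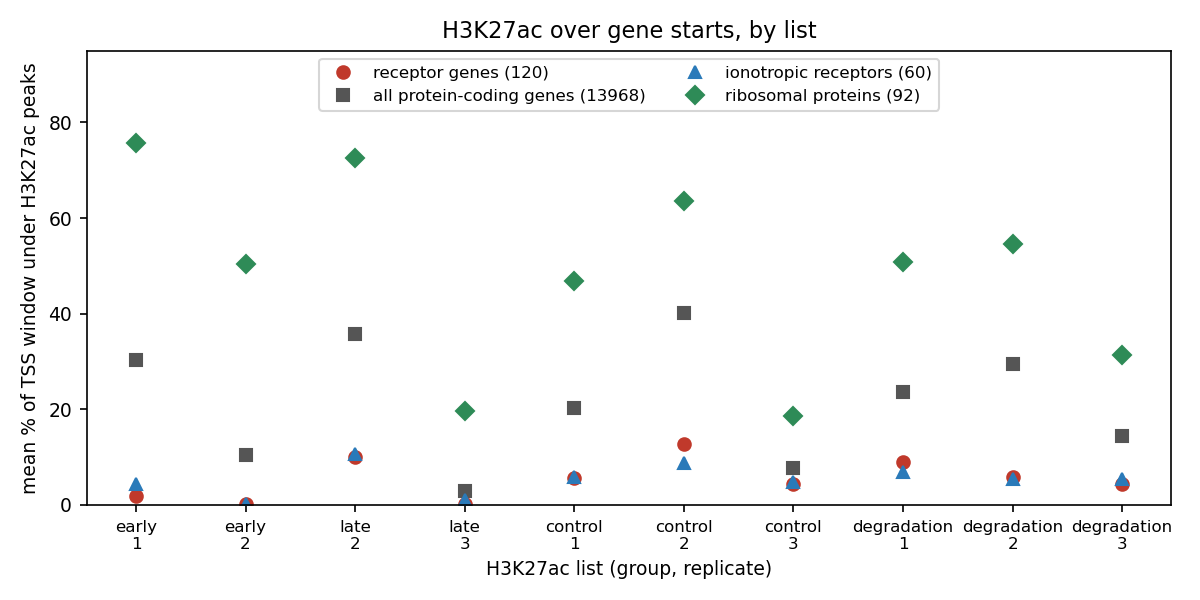
Mean percent of the TSS window under H3K27ac peaks (y axis) in each of the 10 H3K27ac lists (x axis), for receptor genes, all protein-coding genes, ionotropic receptors and ribosomal protein genes. Points are means over genes in 1 list. Receptor genes lay between 0.189% and 12.8% and below all genes in every list shown.

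A peak of every list of a group lay in the TSS window of 2 receptors in early mesoderm, against 37.7% of all genes, and of 3 in late mesoderm against 21.6%. The counts were 13 in the control genotype against 41.9%, and 14 under degradation against 52.9%. They rested on single lists: 13 in early mesoderm without list 2, 87 in late mesoderm without list 3, 26, 22 and 28 in control without list 1, 2 or 3, and 30 and 22 under degradation without list 2 or 3. A stricter count, chosen after seeing the data, asked for a site of at least 1 bp under a peak of every list. It left the 2 receptors of early mesoderm (37.6% of all genes) and 1 of late mesoderm (20.0%), with 4 in the control genotype (30.0%) and 5 under degradation (42.3%). In control, a shared site was thus found for 30.8% of the receptors counted at first and for 71.7% of all genes counted at first.

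H3K27ac lay in the TSS window in 8 or 9 of the 10 lists for 6 receptors. Gr97a, Gr61a, Gr63a and Or67b have another gene's start within 1 kb, Gr94a lies inside p53, and Gr47b stands alone by the classes used. The start of san lies 1194 bp from that of Gr47b, so their TSS windows overlap, and the coverage of san was not examined. Gr61a starts 91 bp from JMJD5, and peaks covered 57.5% and 8% of its TSS window in early mesoderm and 33.8% and 0% in late mesoderm. It had 20.9%, 70.4% and 0% in the control lists and 41.1%, 54.8% and 42.0% in the degradation lists. The window of JMJD5 had the same coverage as that of Gr61a in 8 of the 10 lists, so the peaks cannot be assigned to either start. Gr97a, whose start lies 445 bp from that of CG5521, had a peak in 9 of 10 lists, with 25.4%, 31.1% and 19.8% in control, 36.2%, 28.5% and 15.9% under degradation and 44.2% in late list 2. CG5521 had as much or more in each of them.

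Or71a, an odorant receptor in an intron of Plp, had 78.4%, 48.2% and 14.0% under degradation and 0%, 44.8% and 0% in control. Gr94a, in an intron of p53, had 21.7%, 82.8% and 6.80% in control and 5.35%, 20.0% and 2.55% under degradation. For both genes the ranges of the genotypes overlapped. Gr93a, a receptor needed for the response to caffeine, with no other gene's start nearby, had 23.7%, 50.7% and 0% in control and 40.6%, 56.2% and 16.7% under degradation, again with overlap, and 0% in both early lists. Lists of the same number deviated together, so each degradation list was also set against its control list, a view chosen after seeing the data. Or71a and Gr93a were higher under degradation in 3 of 3 pairs, as were 6 of the 120 receptors in all (5.66% of all genes), and Gr94a was lower in 3 of 3, as were 6 receptors in all (4.85%). With the replicate block the adjusted p was 0.835 for Gr93a and for Gr94a in the trimmed lists (limma), which did not touch Or71a. Gr47b, on 2R, was beside Gr61a the other receptor touched in both early lists, at 24.2% and 14.7%. Receptors sharing their window with another start had more H3K27ac than lone ones in 9 of 10 lists, at 8.48% against 2.26% in early list 1, where nested and clustered receptors had 0.270% and 0.150%.

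Among the best-known receptors the early lists were almost empty. Orco, the coreceptor, was at 0% in both early lists and at 30.2% and 0% in late mesoderm, with 0%, 0% and 12.4% in control and 14.5%, 0% and 0% under degradation. Gr63a, which with Gr21a detects carbon dioxide and starts 297 bp from Lamtor4, had 18.0% in early list 1 and a peak in 8 of 10 lists. Gr64f, a sugar coreceptor, was touched in 1 list, late list 2, at 22.5%. Or67d, Or42b, Or56a, Or82a, Gr21a, Gr5a, Gr43a, Gr66a, Gr33a, Gr28a, Gr28b, Gr39a and Gr77a were each at 0% in both early lists. In late list 2 they ranged from 0% (Or56a, a geosmin receptor, and Gr33a, a bitter receptor) to 53.2% (Gr43a, a fructose receptor).

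Other highly covered receptors were high in 1 or 2 lists of a group. In control, Or47b had 0%, 70.8% and 6.90%, Or88a, another pheromone receptor, had 10.2%, 54.2% and 7.05%, and Gr64b and Gr64c, which share a start, had 26.8%, 47.6% and 0%. Under degradation, Gr8a had 0%, 51.4% and 2.55%, Gr93c 8.30%, 44.6% and 0%, and Gr93b 20.5%, 23.5% and 4.25%. In wild-type mesoderm Or46a had 24.2% and 0% early, Or45b 20.9% and 0% early and 38.0% and 0% late, and Or22a and Or19b had 35.0% and 33.5% in late list 2 and 0% in late list 3. In each of these genes the lists of a group lay far apart.

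For tests, the lists of a comparison were trimmed to the covered length of the shortest by dropping the lowest scores, and covered shares were compared with limma over all genes. After trimming for early against late H3K27ac, peaks touched 6 of the 120 receptors (5%) against 29.8% of all genes: Gr97a, Or56a, Or67b, Or83a, Or85f and Or9a. No gene passed an adjusted p of 0.05 (0% of 4166 genes, lowest adjusted p = 0.499). An unadjusted p below 0.05 was reached by 15 genes with more and 179 with less late, none of them one of the 6 receptors. Lists of the 2 stages did not overlap for 2.93% of genes that were higher late and 10.8% that were lower late, and for 0 of the 6 receptors. Without late list 2 this was so for 4 receptors higher (41.8% of genes). Without late list 3 it was so for 2 higher (21.9%) and 1 lower (19.1%), and without early list 2 for 1 lower (22.4%). Single lists decided this: without late list 2 limma called 1517 genes, 4 of them receptors, and without early list 1 it called 707 genes, 0 of them receptors.

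Control and degradation H3K27ac were compared for 98 of the 120 receptors, the number touched by any trimmed list. No gene was called (0% of 12279 genes, lowest adjusted p = 1, limma). An unadjusted p below 0.05 was reached by 42 genes with more and 14 with less under degradation, with no receptor among these. Lists did not overlap for 0.798% of genes higher and 0.220% lower under degradation, and for 0 of the 98 receptors. Without control list 2 they did not overlap for 2 receptors higher (6.11% of all genes) and 8 lower (4.57%). Without degradation list 2 this was so for 3 higher (2.74%), and without control list 1 or degradation list 3 for 1 higher (2.51% and 4.02%). The median difference in covered share was -1.44 points over the receptors and -0.0500 over all genes tested, but 0.575 and 0.200 with the lists as deposited, so its direction turned. It was -0.183 over the receptors without control list 3 and -2.40 without control list 2. Gr61a differed by 7.18 points between means of 30.5% ± 36.2 and 37.6% ± 15.3 (SD, n = 3 each), less than the spread between lists.

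H3K27me3 over the gene regions of receptors was close to that over all genes or below it. In early mesoderm its peaks covered 2.92% ± 0.914 of the receptors' gene regions (SD, n = 2). The share was 2.18% ± 2.69 in late mesoderm (n = 2), 6.25% ± 3.79 in control (n = 3) and 6.56% ± 0.412 under degradation (n = 3). The same values over all genes were 3.52% ± 1.35, 2.41% ± 2.78, 6.87% ± 3.65 and 7.46% ± 1.25. In 9 of the 10 lists receptors lay below all genes, at 0.638 to 1.10 of their mean. They lay below genes with no other start within 1 kb in each of the 10 lists. Under degradation these values were 6.59%, 6.96% and 6.13% against 8.47%, 11.4% and 10.6%. Genes within the receptors' range of region length lay on either side of the receptors. Receptors were above these genes in control list 2 (10.44% against 9.26%) and below them in early list 1 (3.565% against 4.29%). In the TSS window receptors also lay on either side of all genes. They had 11.87% against 9.33% in control list 2 and 3.12% against 4.21% in early list 1. The receptors' mean leaned on Or85a, described below. Without it the mean fell from 3.055% to 2.24% in control list 1 and from 0.280% to 0.0975% in late list 3. For scale, repo and gcm, which direct glial fate, had a mean of 36.3% to 100% of their gene regions covered. The genes that control receptor choice in olfactory neurons (acj6, pdm3, vvl, Eip93F, Fer1, onecut, sim and Xbp1) had 4.55% to 34.9%.

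Or85a stood far above the other receptors. It lies at chr3R:8321747-8323054 on the plus strand, in an intron of Poxm, a Pax gene of the somatic mesoderm transcribed from the opposite strand. H3K27me3 covered 84.4% and 85.2% of its gene region in early mesoderm and 48.1% and 22.0% in late mesoderm. It covered 100%, 100% and 54.1% in control and 100% in each of the 3 degradation lists. Or85a was the most covered receptor in every one of the 10 lists, and the early values lay above both late values.

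Poxm itself was covered over 74.1% and 86.7% of its gene region early, 38.5% and 17.3% late, 89.3%, 84.4% and 46.5% in control and 100%, 81.0% and 87.1% under degradation. Or85a and Poxm were thus covered together, but their regions share bases, since Or85a lies inside Poxm. The 2 sets of values are therefore not independent. The stretch at chr3R:8319747-8323054 lay under a peak of all 3 degradation lists. The other 15 nested receptors were not marked in this way, with a mean of 0.389%, 5.04% and 5.40% in control and 3.56% and 1.67% in early mesoderm. Or85a also carried H3K27ac in 6 of 10 lists, for example over 33.7% of its TSS window in control list 1 and 12.4% in degradation list 1.

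A few receptors outside other genes were covered over a large part in some lists. Or67d had 38.3%, 67.9% and 7.10% in control, 61.4%, 50.7% and 3.95% under degradation and at most 9.53% in wild-type mesoderm. Or67c had 50.1%, 10.6% and 4.67% in control, 88.1%, 10.7% and 34.5% under degradation and 21.2% and 53.8% in early mesoderm. Gr89a had 9.99%, 62.3% and 4.39% in control and 38.9%, 80.2% and 65.8% under degradation. In none of these 3 genes did the 2 genotypes separate. Within pairs of the same number Gr89a and Or67c were higher under degradation in 3 of 3, for Or67c by little in the pair of lists 2, and they were the only such receptors (1.83% of all genes). Gr22e and Or65c were lower in 3 of 3 (1.87% of all genes). With the replicate block the adjusted p was 0.520 for Gr89a and for Or67c in the trimmed lists (limma).

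Gr59b, on 2R, had 38.0%, 63.7% and 5.97% in control and 92.0%, 48.0% and 51.4% under degradation. Gr93a had 2.39%, 51.6% and 3.08% in control, 43.8%, 35.9% and 23.2% under degradation and 20.5% and 15.7% early. Or65a had 4.96%, 62.0% and 2.81% in control and 62.4%, 34.0% and 24.1% under degradation, and its neighbour Or65b had 11.9%, 45.0% and 6.34% in control. These genes were also covered in both genotypes, and control list 2, which covered most, lay above the other control lists in all of them.

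**Figure D3:**
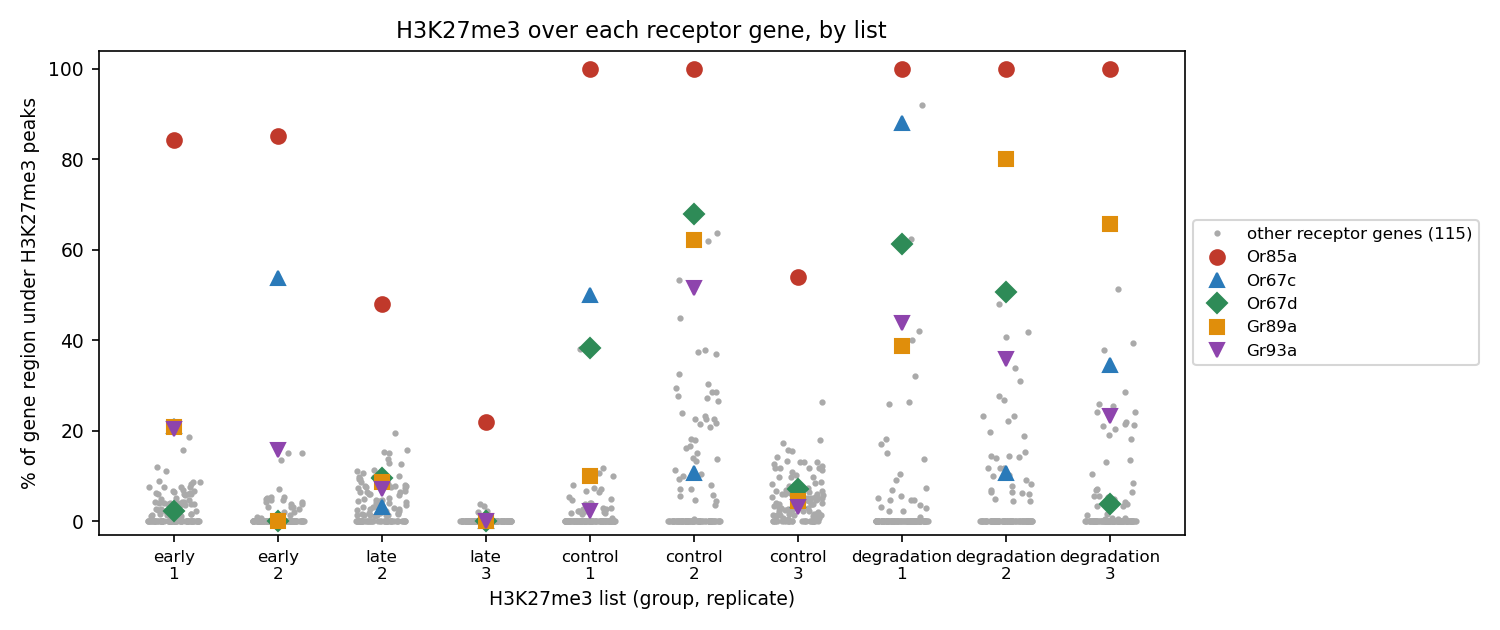
Percent of the gene region under H3K27me3 peaks (y axis) for each of the 120 receptor genes in the 10 H3K27me3 lists (x axis), with 5 genes in colour and the other 115 in grey. Points are single genes. Or85a was the highest in each list, from 22.0% in late list 3 to 100% in control and degradation lists.

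H3K27me3 over the other well-known receptors varied between lists. Gr66a was at 0% in each of the 10 lists. Orco had 0.706%, 24.0% and 6.33% in control, 0%, 19.7% and 6.42% under degradation, 6.09% and 0.678% early and 0% late. Or42b, a receptor for fruit esters, was touched in all 6 lists of the degradation experiment, at 10.0%, 26.6% and 11.8% in control and 15.0%, 10.3% and 28.6% under degradation. Gr5a, Gr43a, Gr64f, Gr33a, Gr28a and Gr39a stayed at or below 10.5% in all lists, and Or82a at or below 17.4%. Others were covered more in single lists: Or56a by 21.4% in control list 2 and 26.0% in degradation list 3, Gr63a by 25.4% and Gr21a by 21.3% in degradation list 3, and Gr28b and Gr77a by 22.6% each in control list 2.

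In late mesoderm the receptors after Or85a with the highest means were Or24a, Or65c, Gr10b, Or22b, Or98a, Or59a and Gr68a, with 12.6% to 19.6% in list 2 and 0% in list 3. In early mesoderm they were Or67c, Gr93a, Gr89a, Gr93b, Gr93d, Or22a and Gr94a, with means of 9.36% to 37.5%.

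A peak of every list lay in the gene region of 19 receptors in early mesoderm against 21.4% of all genes, and of 5 in late mesoderm against 6.90%. It did in 24 in control against 17.3% and in 19 under degradation against 16.4%. Without list 2 the early count was 57, without list 3 the late count was 73, and without list 1 the control count was 44. A site under a peak of every list was left in 7 receptors in early mesoderm (9.12% of all genes), in Or85a in late mesoderm (3.11%), in 7 in control (8.06%) and in 11 under degradation (11.9%). Gr89a, Or65a, Or65b, Or67c, Or67d, Gr59b and Or85a held such a site both in control and under degradation.

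Early and late H3K27me3 were compared for 13 of the 120 receptors. No gene was called (0% of 2450 genes, lowest adjusted p = 0.414, limma), while 35 genes with more and 41 with less late, no receptor among them, reached an unadjusted p below 0.05. Trimming to 1 Mb removed the peaks over Or85a from both early lists and from late list 2, so the values of the deposited lists were not tested for it here. Lists did not overlap for 12.0% of genes higher late, among them 1 of the 13 receptors, and for 4.12% lower late, among them 0. That receptor was Or47b, at 0% and 0% early and 1.44% and 3.75% late (adjusted p = 0.414, limma). Without late list 3 the count was 47 higher and 13 lower of 84 receptors tested, against 54.8% and 10.4% of all genes. Without late list 2 it was 5 higher of 5 tested, against 76.4% of all genes. Without late list 3, limma called 2986 genes with 37 receptors, and without late list 2 842 genes with 5. With the lists as deposited it called 17 genes and 0 receptors.

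Control and degradation H3K27me3 were compared for 67 of the 120 receptors, and no gene was called (0% of 8155 genes, lowest adjusted p = 0.465, limma). Genes with an unadjusted p below 0.05 were 28 with more and 175 with less under degradation, of which 1 was a receptor. Lists did not overlap for 0.159% of genes higher and 0.307% lower under degradation, among them 0 and 1 of the 67 receptors. One list set this count: without control list 2, lists did not overlap for 15.7% of genes lower under degradation, among them 16 of 67 receptors. Without control list 1 they did not for 1 receptor higher (0.582% of all genes) and 0 lower (1.53%). The 1 receptor was Gr59c, at 3.59%, 37.8% and 5.16% in trimmed control lists and 0% in the 3 trimmed degradation lists, with an unadjusted p of 0.0105 and an adjusted p of 0.465 (limma). As deposited, the degradation lists covered 32.2%, 40.7% and 20.5% of Gr59c, so the direction turned with the trimming. Or85a differed by 16.2 points (83.8% ± 28.1 against 100% ± 0, SD, n = 3 each, adjusted p = 0.465, limma).

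Ubx peaks were less frequent in the gene regions of receptors than in those of genes in general in each of the 9 Ubx lists. A peak lay in the gene region of 5%, 66.7% and 20.8% of receptors in early mesoderm lists R, R2 and S, against 13.5%, 82.6% and 39.1% of all genes. In late mesoderm the shares were 23.3% and 35.0% against 32.2% and 41.4%. In early neurons they were 62.5% and 81.7% against 74.3% and 92.3%, and in late neurons 3.33% and 0.833% against 5.19% and 3.64%. In the TSS window, which has the same length for every gene, this did not hold in each list. Receptors lay above all genes in late mesoderm list R (15% against 13.9%) and late neuronal list R (1.67% against 1.29%). They lay below in the other lists, by little in late mesoderm list S (19.2% against 19.9%). The shares followed the lengths of the lists, and receptors have shorter gene regions than genes in general. Genes within the receptors' range of region length had means of 43.3% in early mesoderm, 32.2% in late mesoderm, 84.7% in early neurons and 2.71% in late neurons. Receptors had 30.8%, 29.2%, 72.1% and 2.08%, and lay above these genes in late neuronal list R alone (3.33% against 2.95%).

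**Figure D4:**
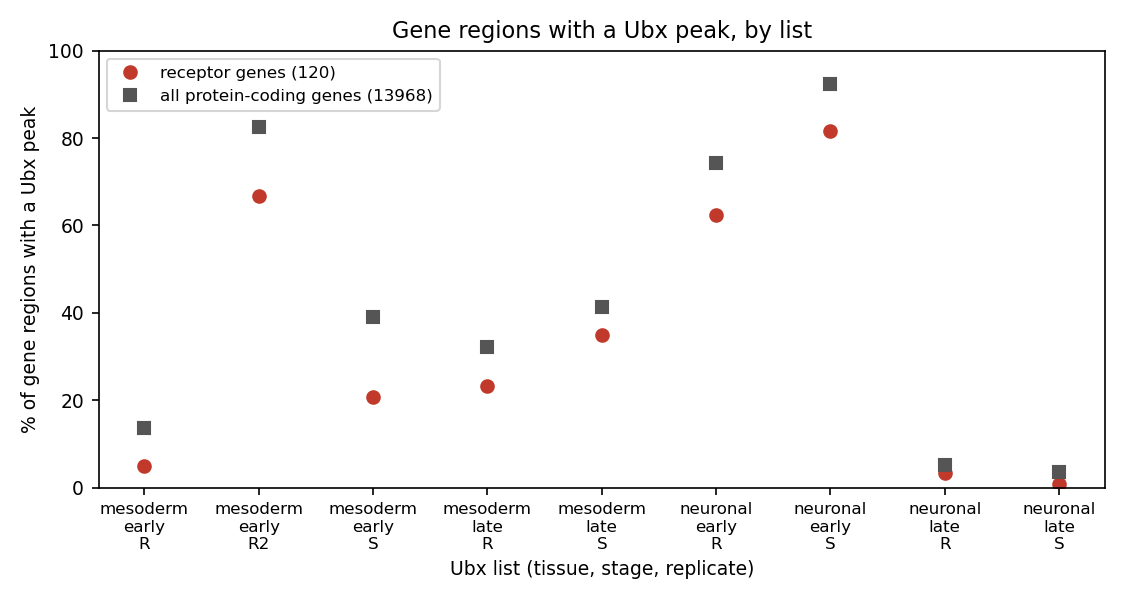
Percent of gene regions with a Ubx peak (y axis) in each of the 9 Ubx lists (x axis), for 120 receptor genes and 13968 protein-coding genes. Receptor genes lay below all genes in each list, and the early mesoderm lists alone spanned 5% to 66.7% for receptors.

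A Ubx peak of every list lay in the gene region of 4 receptors in early mesoderm (8.20% of all genes) and 13 in late mesoderm (18.8%). It did in 65 in early neurons (70.9%) and in 0 in late neurons (0.802%). Without list R the early mesoderm count was 18 and without list R2 it was 4. The late mesoderm count was 42 without list R and 28 without list S, the early neuronal count 98 without list R, and the late neuronal count 1 without list R and 4 without list S. A site under a peak of every list was found in 0 of the 120 receptors in early mesoderm (0.551% of all genes), 0 in late mesoderm (3.47%), 26 in early neurons (38.7%) and 0 in late neurons (0.322%). The mesodermal lists thus hit the same receptors at different places. No receptor had peaks of more than 6 of the 9 Ubx lists, and Gr58c and Or1a had peaks of none.

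In early mesoderm the 4 receptors were Gr21a, with 1, 3 and 1 peaks in the 3 lists, Gr64d and Gr64e, sugar receptor genes with nearly the same annotated span and so the same peaks, 1, 2 and 1, and Or85e with 1 in each. In late mesoderm Or82a had 1 and 3 peaks and Gr39a, a gene with several alternative starts, 2 and 1. Gr22f, Gr28b, Gr58a, Gr58b, Gr92a and Gr93b had 1 and 1. Peaks of both late mesoderm lists and of no early mesoderm list were found at Gr39a, Gr92a, Or24a and Or82a, 4 receptors against 0.773% of all genes. Peaks of both late mesoderm lists and of no late neuronal list were found at 12 receptors against 14.8% of all genes.

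In early neurons Orco had most peaks, with 2 and 8 in the 2 lists, and its gene region is among the longest of the receptors. Gr21a had 3 and 4, Gr28b, which serves in warmth and light sensing, 3 and 4, Gr32a, a bitter and pheromone receptor, 2 and 5, Gr61a 2 and 5, Gr63a 1 and 5, Or22c 3 and 3 and Or59b, a receptor for acetate esters, 2 and 4. Of the remaining well-known receptors, Or67d, Or42b, Or82a, Gr5a, Gr43a, Gr64f, Gr66a, Gr28a and Gr77a were hit in both early neuronal lists, and Or56a, Gr33a and Gr39a in 1. Gr10b, Gr28a, Gr36b, Gr5a, Gr77a, Or33c, Or67d, Or82a and Or98a were hit in both and in no early mesoderm list, 9 receptors against 5.78% of all genes. Hits in both early and in no late neuronal list numbered 62 receptors against 63.8% of all genes. The late neuronal lists held 936 and 1336 peaks, so a gene without a peak there may still be bound.

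The 26 sites at receptors under a peak of both early neuronal lists lay mostly in exons and upstream stretches. Counted for each receptor they touched, 14 lay in a coding exon, 14 upstream of the start and 1 in an untranslated exon. In the 200 bases around them the median GC content was 53%, against 48.5% around all 16623 such sites of the genome and 42.7% over the receptors' gene regions. TAATTA lay in 1 of the 26 stretches (3.85% against 5.92% of all sites), TGATTTAT in 0 (0% against 0.890%) and GCCATNTT in 4 (15.4% against 4.05%). Repeat sequence, as soft-masked in the reference, made up most of 1 of the 26 sites, that upstream of Or67a, against 27.3% of all sites.

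The sites of 4 well-known receptors are shown as 200 bases around the site, 5′ to 3′ on the gene's strand, with any match to the motifs in capitals. The site of Orco lies in a coding exon, 3544 bp downstream of the start, and spans 135 bp. The site of Gr21a that is shown is the first of 2 in its coding exons, and the site of Gr28a lies 291 bp into the gene, also in coding sequence. Both held a match to the Pho core. The site of Gr66a lies in a coding exon 712 bp from the start.

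Orco, chr3R:5408763-5408962, minus strand: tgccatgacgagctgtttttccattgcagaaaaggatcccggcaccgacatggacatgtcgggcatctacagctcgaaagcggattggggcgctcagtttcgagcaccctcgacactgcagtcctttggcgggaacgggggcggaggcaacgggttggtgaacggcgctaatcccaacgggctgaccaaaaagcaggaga

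Gr21a, chr2L:781455-781654, plus strand: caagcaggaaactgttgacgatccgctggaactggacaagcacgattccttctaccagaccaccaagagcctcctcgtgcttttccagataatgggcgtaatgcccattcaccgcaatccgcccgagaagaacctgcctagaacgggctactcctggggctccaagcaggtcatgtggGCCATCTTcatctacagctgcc

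Gr28a, chr2L:7453821-7454020, minus strand: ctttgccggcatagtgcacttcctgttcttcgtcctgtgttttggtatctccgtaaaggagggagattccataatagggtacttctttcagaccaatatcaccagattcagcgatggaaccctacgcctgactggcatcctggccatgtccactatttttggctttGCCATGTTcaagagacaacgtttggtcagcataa

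Gr66a, chr3L:8306169-8306368, minus strand: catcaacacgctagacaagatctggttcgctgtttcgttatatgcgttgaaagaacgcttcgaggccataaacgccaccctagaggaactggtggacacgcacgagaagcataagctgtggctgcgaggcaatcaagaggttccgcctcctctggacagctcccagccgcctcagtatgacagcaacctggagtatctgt

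The authors' fold enrichment of Ubx peaks at receptors was like that of Ubx peaks at any gene, while their scores differed in some lists. The median fold enrichment of peaks at receptors was 2.54 in early mesoderm list R2 and 2.13 and 2.41 in late mesoderm, against 2.55, 2.06 and 2.38 for peaks at any gene. In early neurons it was 2.83 and 2.66 against 2.85 and 2.67. Scores above the list's median were held by 20%, 43.5% and 61.5% of peaks at receptors in early mesoderm lists R, R2 and S. At any gene the shares were 45.9%, 50.8% and 45.7%. In late mesoderm they were 71.4% and 52.3% against 49.1% and 44.6%. Early neurons had 37.25% and 43.0% against 43.7% and 45.5%. Late neurons had 25% and 0% against 39.15% and 37.7%, from 4 and 1 peaks at receptors. For H3K27me3 in control list 1, 28.3% of peaks at receptors had a score above the median of the list, against 45.3% of peaks at any gene, and their median length was 130.5 bp against 211 bp. In the degradation lists the shares were 55.9%, 39.5% and 46.0% against 48.0%, 46.5% and 46.1%.

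Pho covered receptor starts about as much as other starts. The mean covered share of the TSS window was 15.5% ± 5.95 in control (SD, n = 3) and 11.3% ± 1.37 under degradation (n = 3), against 13.8% ± 3.69 and 12.5% ± 1.16 for all genes. A peak of every list lay in the window of 57 receptors in control against 45.6% of all genes, and of 49 under degradation against 45.2%. A site under a peak of every list was found in 12 receptors in control (16.4% of all genes) and 18 under degradation (19.1%). Gr63a, Or47b and Or49b held such a site in both genotypes. GCCATNTT lay in the 200 bases around the midpoint of 0 of 12 such sites in control and 0 of 19 under degradation. Of all such sites, 4.07% and 4.49% held it. With so few sites at receptors, a count of 0 does not show a lower share.

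Receptors with much Pho in control were Or47b (35.7%, 30.3% and 64.7%), Gr59c (25.3%, 20.3% and 81.0%), Gr59d (21.1%, 15.6% and 79.7%) and Gr98b (48.1%, 43.2% and 21.6%). Gr61a had 33.3%, 20.9% and 48.5%, and Gr59e and Gr59f, which lie head to head, had 26.7%, 19.6% and 56.3% each. Control list 3 was the highest for all of these but Gr98b. Under degradation Gr32a had 11.0%, 54.0% and 16.7%, Or56a 0%, 46.7% and 30.4%, Or74a 8.80%, 45.1% and 22.2%, Or49b 30.6%, 6.05% and 38.4%, and Gr47b 63.2%, 0% and 11.0%. Gr5a, a trehalose receptor, was at 0% in each of the 6 lists, although it starts within 1 kb of Tre1.

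Control and degradation Pho were compared for 111 of the 120 receptors. No gene was called (0% of 13134 genes, lowest adjusted p = 0.965, limma), and 273 genes with more and 155 with less under degradation, 2 and 3 receptors among them, had an unadjusted p below 0.05. Lists did not overlap for 5.02% of genes higher under degradation, among them 5 of the 111 receptors, and for 3.07% lower, among them 6. The share of receptors was near that of all genes for higher, and above it for lower, which rests on 6 receptors. The median difference in covered share was -1.33 points over the receptors and 0.217 over all genes tested. Without control list 3 it was 0.100 over the receptors and 1.15 over all genes. Leaving out each list in turn gave 5 to 9 receptors higher, against 7.89% to 10.2% of all genes. It gave 10 to 16 lower, against 5.66% to 9.61%, with the 16 without control list 2. With each list left out, the share of receptors lay below that of all genes for higher and above it for lower. These fits share most of their lists and are not independent. They cover trimmed lists in the TSS window only, so they do not show that the difference holds under other settings.

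The 5 receptors higher under degradation in the trimmed lists were gustatory. Gr64f had 5.50%, 10.4% and 0% in control and 21.7%, 31.3% and 32.2% under degradation, a difference of 23.1 points (unadjusted p = 0.0476, adjusted p = 0.965, limma). Gr66a had 0%, 0% and 5.60% against 18.9%, 31.0% and 18.4%, a difference of 20.9 points (adjusted p = 0.965, limma). Gr21a had 0%, 0% and 5.60% against 29.3%, 12.6% and 12.8%, Gr94a 0%, 0% and 14.0% against 16.8%, 28.2% and 17.5%, and Gr93d 0% in control against 4.40%, 6.50% and 6.05%. In the lists as deposited, Gr64f and Gr66a still separated, while Gr21a, Gr94a and Gr93d overlapped between genotypes.

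Lower under degradation were Or45b, at 42.9%, 34.9% and 37.8% in control against 8.50%, 19.2% and 3.45%, and Or59c, at 8.30%, 32.9% and 38.2% against 0%, 4.10% and 6.90%. Gr59d had 21.1%, 10.1% and 52.8% against 6.65%, 8.45% and 8.25%, and Gr93b 24.4%, 24.2% and 21.4% against 0%, 6.60% and 8.30%. Gr98a had 11.1%, 14.1% and 33.5% against 0% in the 3 trimmed degradation lists. The difference was 28.1 points for Or45b and 19.6 for Gr98a, each with an adjusted p of 0.965 (limma). Or85b had 3.45%, 11.2% and 15.4% against 0%, 3.10% and 0%. All 6 of these receptors stayed without overlap in the lists as deposited, with Or45b at 19.5%, 19.2% and 27.3% and Gr98a at 12.9%, 0% and 0% under degradation.

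**Figure D5:**
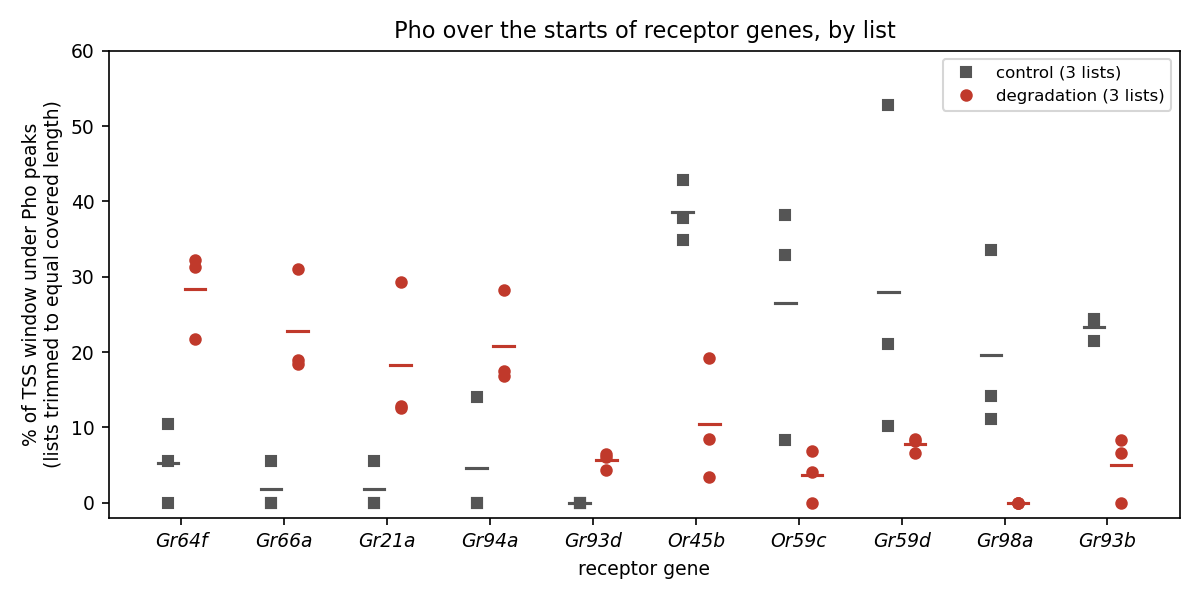
Percent of the TSS window under Pho peaks after trimming to equal covered length (y axis) for 10 receptor genes whose control and degradation lists did not overlap (x axis). Points are single lists, 3 for each genotype, and bars their means. The first 5 genes were higher and the last 5 lower under degradation, and none passed the test over all genes. Or85b, which was also lower without overlap, is not shown.

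The Pho sites under a peak of all 3 degradation lists are shown for Gr64f and Gr66a, the receptors that were higher without overlap both in the trimmed and in the deposited lists, as 200 bases around the site on the gene's strand. Both lie in coding exons, 412 bp from the start of Gr64f and 835 bp from that of Gr66a, and neither stretch held a motif match. The Pho site of Gr66a (3L, 8306005 to 8306286) overlapped its Ubx site in early neurons (8306234 to 8306304).

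Gr64f, chr3L:4036111-4036310, plus strand: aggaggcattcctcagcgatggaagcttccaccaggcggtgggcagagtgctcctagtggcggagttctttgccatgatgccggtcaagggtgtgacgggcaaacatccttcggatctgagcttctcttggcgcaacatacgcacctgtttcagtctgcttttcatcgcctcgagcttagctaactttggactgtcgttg

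Gr66a, chr3L:8306045-8306244, minus strand: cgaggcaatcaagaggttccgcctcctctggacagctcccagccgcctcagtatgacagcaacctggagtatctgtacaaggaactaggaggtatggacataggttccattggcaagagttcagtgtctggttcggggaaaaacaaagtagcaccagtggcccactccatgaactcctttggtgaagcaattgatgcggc

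The labelled tissue of the mesodermal nuclei was checked by the marks at known genes. Neuronal nuclei had no lists of these marks and were not checked in this way. The mean H3K27ac of 8 mesoderm and muscle genes (twi, Mef2, tin, bap, Mhc, Act57B, Mlc2 and wupA) was above that of 5 neuronal genes (elav, nSyb, Syt1, brp and para) in each of the 10 lists, at 1.62% to 41.0% against 0% to 31.7%. The margin was small in early mesoderm, at 13.1% against 12.8% and 1.62% against 1.12%, where all genes had 30.2% and 10.4%. The mean of the mesoderm and muscle genes was above that of repo and gcm in 8 lists. It was below in early list 1 (33.1% for repo and gcm) and in control list 2 (55.4%). The mesoderm and muscle genes also had more H3K27me3 than the neuronal genes in each of the 10 H3K27me3 lists, at 10.3% to 37.8% against 0% to 10.3%, so the 2 marks did not point the same way. The mean over Orco, amos and ato, genes of chemosensory neurons, was 0% in 3 lists and at most 29.9%. The part of other cell types in the values of receptors was not tested. List lengths differed widely, from 4721 to 85449 peaks for H3K27ac, and the depth of sequencing is not known from the files.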

How the data were processed

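ChIP-seq peak lists of Ubx, H3K27ac, H3K27me3 and Pho from INTACT nuclei were analysed, 35 in all. Per the labels' protocols, libraries were amplified with ThruPLEX. Per the submitters' processing notes, FastQC, Bowtie and MACS2 were used with the dm6 build. Versions, parameters and the use of inputs are not given in the sources used here. The deposited lists give each peak a score and a fold ratio over background, as the authors' peak caller wrote them. The score served to rank peaks within a list and the ratio to describe them. The combined Ubx lists and the 25 inputs were not used. Sequencing depth is unknown, so no interval for counting error is given.

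From these, the percent of each TSS window (1 kb either side of the start) or gene region (2 kb upstream to the gene's end) under peaks was computed, with any overlap counted as a hit. For tests, the lists of a comparison were trimmed by score to the shortest covered length. Arcsine square roots of covered shares were compared with limma 3.58.1 in R 4.3.3, with Benjamini-Hochberg adjustment over all genes with coverage in any list and a threshold of 0.05. The fit was tested on simulated data. Lists of control and degradation with the same number deviated together for H3K27ac (correlations 0.439, 0.601 and 0.590) and H3K27me3 (0.298, 0.359 and 0.349). Python 3.11.15 did the rest.

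The members and gene lists were chosen with earlier results of these data known. Genes named throughout were 16 well-known receptors, together with receptors marked in every list, most covered in a group, or without overlap between groups. Poxm, JMJD5, CG5521, Lamtor4, Tre1, p53 and Plp were chosen after their values were seen. Alternatives were the lists as deposited, the better-scored peaks, other windows, a larger overlap, no filter, no receptors with a shared window, a replicate block and each list left out.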

Additional observations from a re-analysis of the deposited data

How the results depend on the processing

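Under the alternatives run, the number of genes called for H3K27me3 between stages was 17 with lists as deposited, 2 with the better-scored 50% of peaks and 18 in the TSS window. It was 7 for H3K27me3 under degradation with no filter on uncovered genes, a setting that could not be fitted for the 2 stage comparisons. With one list left out, calls ranged from 0 to 1517 genes and 0 to 4 receptors for H3K27ac between stages, and from 7 to 2986 genes and 0 to 37 receptors for H3K27me3 between stages. The other 3 comparisons kept 0 calls. The cause was not tested. With the replicate block, 0 genes were called, and it changed no call. Pho lists of the same number did not deviate together (correlations 0.002, -0.020 and -0.022).

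Receptors marked in every list depended on the overlap asked for. With at least 100 bp there were 6 in control, 6 under degradation and 1 in late mesoderm for H3K27ac, 13 in control, 10 early and 1 late for H3K27me3, and 29 under degradation for Pho. With the better-scored 50% there were 2 in control, 4 under degradation and 1 late for H3K27ac. The same setting left 5 in control, 3 under degradation, 6 early and 1 late for H3K27me3, and 13 and 15 for Pho. Without receptors with a shared window, H3K27ac left 1 early and 1 late. A site under every list, chosen after seeing the data, left 4 in control, 5 under degradation and 1 late for H3K27ac, 7, 11, 7 early and 1 late for H3K27me3, and 12 and 18 for Pho. Leaving out a list gave 22 to 28 in control, 21 to 30 under degradation, 2 to 13 early and 4 to 87 late for H3K27ac. It gave 24 to 44, 19 to 26, 28 to 57 and 5 to 73 for H3K27me3, and 62 to 72 and 58 to 66 for Pho.

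Ubx counts in early mesoderm, late mesoderm and early neurons were 0, 4 and 37 with at least 100 bp, and 0, 3 and 34 in the TSS window. They were 0 in each with trimmed lists, and 0, 0 and 26 with a shared site. With the better-scored 50% they were 0 in early mesoderm and 24 in early neurons. With one list left out they were 4 to 18, 28 to 42 and 75 to 98, and 1 to 4 in late neurons. Of the differences of named receptors under an alternative, 785 kept direction and side of the threshold, 66 moved and 9 passed it, all 9 in stage comparisons without a late list. All 36 mean levels over the receptors moved by less than the spread between lists. Depth could not be judged from peak lists.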
